A study of Populus davidiana with 6 samples.

Results

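A group of 316 loci was examined that were transcribed in aspen leaves but lay outside every annotated gene. They were chosen among 40537 gene identifiers in the files by 4 conditions. No transcript of the locus carried the annotated status, the strand was given as plus or minus, the span from first to last base was at least 200 bp, and no annotated gene overlapped it on either strand. These conditions left 368 loci. FPKM, the fragments assigned to a transcript per kilobase of its length and scaled to the size of the library, was summed over the transcripts of each locus, and the 316 loci above 0 in at least 3 of the 6 libraries are described. Of the other 52 loci, 36 were listed at 0 in every library and 16 were above 0 in 1 or 2 libraries. The label intergenic held with respect to annotated transcripts, but 6 of the 316 loci overlapped an assembled identifier named after an annotated gene.

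Gene annotations are models of a reference genome, and poly(A) RNA sequencing of a related plant commonly yields transcripts that no model covers. Such transcripts can be long noncoding RNAs, missed protein-coding genes, transposon transcripts, or upstream and downstream parts of neighbouring genes. An assembler can give a strand to reads from a kit that does not mark strand when they cross splice sites, whose bases differ between the strands. The gene name column is empty (0 names) and no genome sequence was used here, so neither the sequences nor the products of these loci are given. Identifiers are printed for the 2 largest rises and the 2 largest falls, and other loci are given by position as the files list it, counted from 1.

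All 6 libraries came from leaves of Populus davidiana, an Asian aspen, cultivar Odae19, classed as drought tolerant in the labels and grown in vitro to an age of about 6 weeks. The 3 control libraries were compared with 3 from plants taken out of the medium, rinsed and left out in the air for 10 min or so, called air-dried here. Whether the controls were also removed and rinsed is not stated, so an effect of drying cannot be told apart from that of uprooting or rinsing. Fewer cells of a type and less RNA per cell cannot be told apart either. The labels speak of triplicate leaf samples without naming separate plants, so p-values reflect variation among these samples alone, and that variation may be technical. Sequencing depth is unknown from FPKM, and the leaf label could not be checked against marker genes without gene names.

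The loci were short and mostly had a single transcript. Their median span was 944 bp, with quartiles of 543 and 1786 bp and extremes of 229 and 13878 bp. By comparison, the median was 1683 bp for the 8524 single-transcript annotated genes chosen by the same span and detection conditions, and 3326 bp for all 26306 such annotated genes. A single transcript was listed for 214 loci (67.7%), 2 transcripts for 60, and 5 or more for 11, with at most 11. The strand was plus for 168 and minus for 148. Loci occurred on each of the 19 chromosomes (290 loci) and on unplaced scaffolds (26). Per 1000 annotated identifiers there were between 3.95 loci on chromosome 19 and 12.2 on chromosome 8, and 11.8 on scaffolds.

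**Figure D1:**
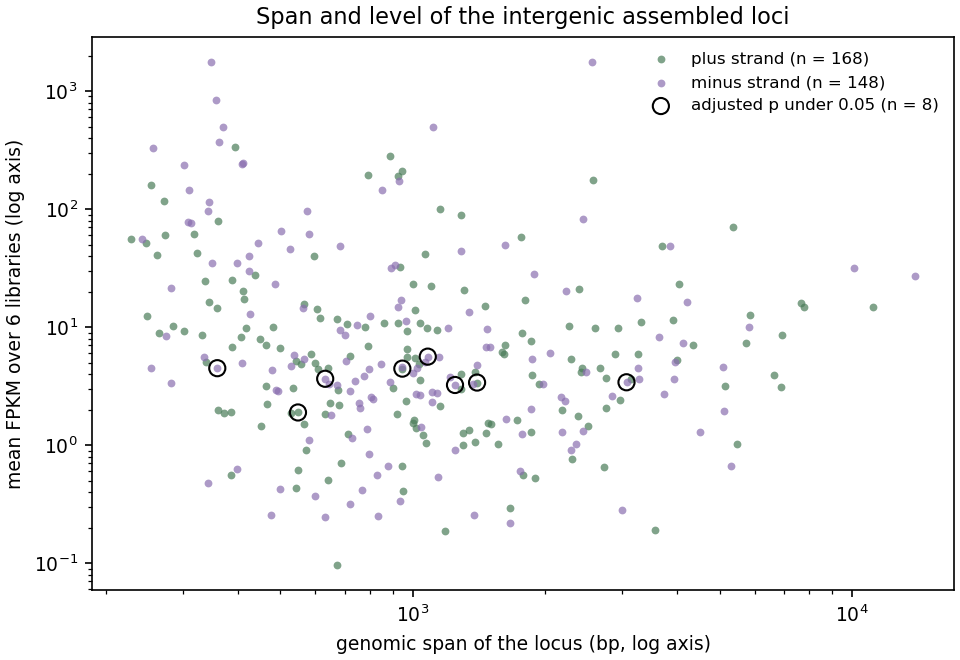
Genomic span (x, bp, log axis) against mean FPKM over the 6 libraries (y, log axis) for the 316 loci, coloured by strand, with circles around the 8 loci called between control and air-dried leaves. The loci above 100 FPKM lie mostly at short spans, and the circled loci lie between 1.89 and 5.62 FPKM.

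The span limit fell in a sparse part of the range. Just inside it, a 229 bp locus on chromosome 9 (4827529 to 4827757) averaged 55.8 FPKM. A 242 bp locus on chromosome 6 (7446241 to 7446482) averaged 56.3 FPKM, and a 247 bp locus on chromosome 13 (12366158 to 12366404) averaged 51.2 FPKM. Just outside it, loci of 177, 159 and 148 bp averaged 31.3, 219 and 105 FPKM. The 229 bp and 242 bp loci were each listed at 0 in at least 1 library, while the 3 loci outside the limit were above 0 in all 6.

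Most of the loci were weakly expressed. The mean over 6 libraries was under 1 FPKM in 37 loci, from 1 to under 10 FPKM in 171, from 10 to under 100 FPKM in 85 and at least 100 FPKM in 23. The median of these means was 5.11 FPKM. In 269 loci (85.1%) all 6 libraries were above 0, above the 75.3% of single-transcript annotated genes and below the 91.0% of all annotated genes. A value above 0 could be far below the worth of a fragment: 6 loci held a value above 0 but under 0.001 FPKM, and 314 of the 316 would remain if 0.001 FPKM were required. The 47 loci with at least 1 library at 0 had a median mean of 1.46 FPKM, against 5.63 FPKM for the rest, but 8 of them averaged at least 10 FPKM. A value listed at 0 may come from an estimate that failed, or from no reads.

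Within each library the loci stood above single-transcript annotated genes, and below both strandless assembled loci and the annotated genes as a whole. The median level per library was 4.13 to 5.49 FPKM in the loci and 7.71 to 8.27 FPKM in all annotated genes, a description with no test. The median log2(FPKM + 1) was 2.58 ± 0.144 for the loci and 1.19 ± 0.0829 for the single-transcript annotated genes (SD, n = 6 libraries). The difference of 1.39 had the same sign in 6 of 6 libraries, from 1.15 to 1.56 (exact sign-flip permutation test, 2-sided p = 0.03125, the smallest 6 libraries allow, adjusted over 3 comparisons p = 0.0469). With spans of 500 to 1500 bp in both, 151 loci and 3252 genes, it was 0.88 to 1.28. The loci were not limited to those of a single transcript. In 102 of them FPKM was summed over several transcripts, while each of these genes had a single transcript. The median mean was 1.35 FPKM in single-transcript annotated genes and 8.06 FPKM in all annotated genes. A comparison of single-transcript loci alone was not made, and matching the spans does not remove this inequality. An annotated gene is listed whether or not reads were found, and an assembled locus is listed because reads were assembled there. The part of this way of listing in the difference was not tested. Against 778 strandless loci, whose median span was 259 bp, the difference was −0.54 (−0.92 to −0.21, exact permutation p = 0.03125, adjusted p = 0.0469), and it reversed to 1.01 among spans of at least 500 bp. Against 280 assembled loci antisense to annotated genes the difference was 0.062 (−0.079 to 0.167, exact permutation p = 0.156, adjusted p = 0.156).

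A few loci held a large part of the signal. The 10 most abundant took between 39.5% (control 3) and 62.6% (control 1) of the FPKM of the 316 loci. Of these 10, 8 lay on the minus strand and 7 spanned under 500 bp. The first is a minus-strand locus of 348 bp on chromosome 17 (783549 to 783896). In controls 1, 2 and 3 it stood at 2902, 1251 and 912 FPKM. In air-dried 1, 2 and 3 it stood at 1511, 1775 and 2251 FPKM, and the groups overlapped. Almost as abundant on average was a 2565 bp locus with 2 minus-strand transcripts on chromosome 1 (14614508 to 14617072), at 1761 FPKM against 1767 FPKM for the first. The controls gave 4105, 3007 and 316 FPKM and the air-dried libraries 2381, 194 and 565 FPKM. Controls 1 and 2 and air-dried 1 were thus high, control 3 and air-dried 2 and 3 were low, and the groups overlapped.

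The same order of libraries recurred down the list. A 356 bp locus on chromosome 4 (8978165 to 8978520) measured 1388, 1412 and 389.6 FPKM in the controls and 1071, 278 and 538 FPKM after drying. On scaffold_1410 a 363 bp locus that begins at base 2 and ends at base 364 gave 801 and 701 FPKM for controls 1 and 2 and 49.9 FPKM for control 3. Its air-dried values were 569.6, 48.4 and 32.7 FPKM, so both groups held high and low libraries. A 256 bp locus on chromosome 2 (18015433 to 18015688) measured 668, 628 and 123 FPKM in the controls and 432, 31.1 and 92.8 FPKM in the air-dried libraries. Once more control 3 and air-dried 2 and 3 were the low libraries.

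Not every abundant locus followed this order. A 1110 bp locus on chromosome 11 (17035309 to 17036418) varied little, with 580.1, 562 and 364 FPKM in the controls and 549 FPKM in air-dried 1, 336 FPKM in air-dried 2 and 583 FPKM in air-dried 3. An 889 bp locus of the plus strand, chromosome 4 (4232641 to 4233529), was listed at 0 in control 3 and air-dried 2. Controls 1 and 2 gave 253 and 311 FPKM there, and air-dried 1 and 3 gave 584 and 535 FPKM. For none of the 10 did the test between control and air-dried leaves pass (limma adjusted p of 0.519 to 0.964).

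**Figure D2:**
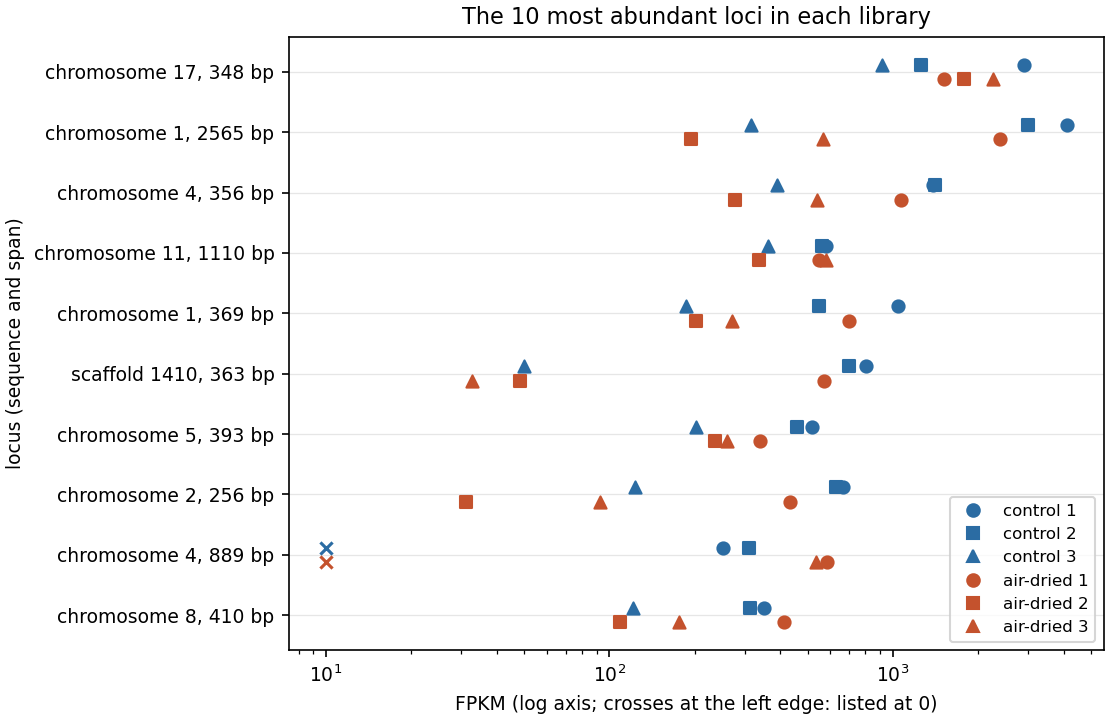
FPKM (x, log axis) of the 10 most abundant loci in each library, control libraries in blue and air-dried in red, with marker shapes for library numbers and crosses for values listed at 0. In most rows control 3, air-dried 2 and air-dried 3 lie at the left, and the colours overlap in each row.

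Over all 316 loci the libraries differed in a way that the labels do not name. The sole lowest library was air-dried 2 in 94 loci, air-dried 1 in 55, control 3 in 53, air-dried 3 in 32, control 1 in 29 and control 2 in 24. The sole highest library was air-dried 1 in 77 loci, control 1 in 75, control 2 in 75, air-dried 3 in 38, air-dried 2 in 26 and control 3 in 25. Air-dried 1 was thus often at either extreme. Of the 20 possible sets of 3 libraries, the set most often lowest was control 3, air-dried 2 and air-dried 3, in 70 loci (22.2%). That set was lowest in 11.2% of annotated genes and 11.5% of single-transcript ones. The 3 air-dried libraries were the lowest in 29 loci (9.18%, and 8.71% of annotated genes). These shares are descriptions with no test, and they were not counted for antisense and strandless assembled loci. In strandless loci the median FPKM was 11.2, 11.3 and 5.29 in controls 1, 2 and 3. It was 9.67, 4.93 and 6.15 in air-dried 1, 2 and 3. In antisense loci the medians were 5.02, 5.33 and 4.43 in the controls and 4.79, 4.42 and 4.42 after drying. Control 3 and air-dried 2 and 3 thus had the lowest medians in these classes too.

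The library differences were widest at short spans. Among the 71 loci under 500 bp, the median deviation from the mean of the 6 libraries was 0.51, 0.58 and −0.35 log2 units in controls 1, 2 and 3. In air-dried 1, 2 and 3 it was 0.46, −0.43 and −0.38. Among the 69 loci of at least 2000 bp these deviations lay between −0.13 (air-dried 2) and 0.090 (control 2). In 413 single-transcript annotated genes under 500 bp the order was similar and the size smaller on log2(FPKM + 1), from −0.24 in control 3 to 0.28 in air-dried 1. This scale understates differences of low values, and the median level of these genes was 2.67 FPKM, beside 17.3 FPKM in the loci. Their median SD over mean was not smaller, at 0.710 beside 0.670.

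The level and its variation moved with span as well. Median mean FPKM was 17.3 under 500 bp, 4.52 from 500 to under 1000 bp and 4.60 at 2000 bp or more. In single-transcript annotated genes it was 2.67 under 500 bp and 1.15 at 2000 bp or more. The median SD over mean across the 6 libraries was 0.670 in the loci under 500 bp and 0.249 in those of at least 2000 bp. In the annotated genes of these spans it was 0.710 and 0.270.

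**Figure D3:**
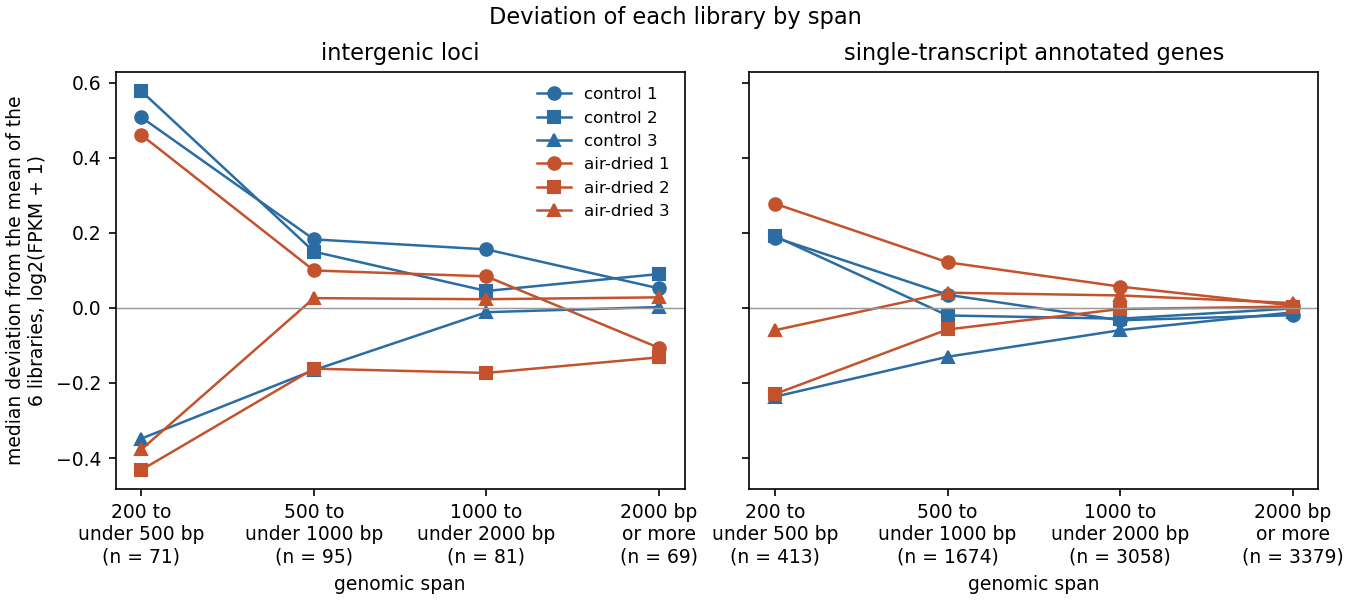
Median deviation of each library from the mean of the 6 libraries (y, log2(FPKM + 1) units) by class of genomic span (x), for the 316 loci and for single-transcript annotated genes, control in blue and air-dried in red. Under 500 bp controls 1 and 2 and air-dried 1 lie above 0 and the other libraries below it in both panels, and the lines close up towards 2000 bp.

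No difference between control and air-dried leaves in the number or the summed level of the loci passed a test. Between 294 and 308 loci were above 0 in the controls and between 296 and 306 after drying (exact permutation test, 2-sided p = 1). At 1 FPKM or more there were 268 ± 4.73 loci in the controls and 258.0 ± 5.57 after drying (SD, n = 3, exact permutation p = 0.2, where 3 against 3 cannot go below 0.1). Among loci at least 1 kb from every annotated gene that difference was −6.67 loci, with the smallest possible p (exact permutation p = 0.1). Summed FPKM came to 20136, 15802 and 6739 in the controls and to 15264, 7240 and 10238 after drying, and the groups overlapped (exact permutation p = 0.5). As a share of the FPKM of all transcripts spanning over 150 bp, the loci held 0.770% to 1.82% in the controls and 0.758% to 1.35% after drying (exact permutation p = 0.4).

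Of the 316 loci, 278 reached 1 FPKM in at least 3 libraries and were tested, and 8 were called, 3 higher and 5 lower in air-dried leaves (limma on log2(FPKM + 1), Benjamini-Hochberg adjusted p under 0.05 over 22559 identifiers). That is 2.88%, beside 4.3% of all tested identifiers. The higher loci made up 1.08%, beside 3.61%, and the lower loci 1.80%, beside 0.696%. In 15 loci (5.4%) all 3 air-dried values lay above all 3 controls, beside 13.4% of tested identifiers, and in 29 (10.4%) they lay below, beside 9.18%. An unadjusted p under 0.05 was reached by 44 loci (15.8%), beside 16.5%. The median log2 fold change was −0.13 in the loci and 0.0037 in all tested identifiers. A negative value was found in 178 of the 278 loci (64.03%), beside 48.3% of tested annotated genes and 45.3% of tested single-transcript ones. Antisense and strandless assembled loci had medians of −0.15 and −0.28, with negative values in 66.4% and 63.0%. With control 1 left out the median of the loci was −0.052, and with control 3 left out it was −0.22. Omitting air-dried 1 gave −0.22, and omitting air-dried 2 gave −0.030. When the libraries were rescaled to a common sum, the median of all identifiers moved to 0.31 and that of the loci to 0.13, which left the loci 0.18 lower than all identifiers.

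The largest rise was that of XLOC_031331, a single-transcript locus of 1082 bp of the minus strand, chromosome 6 (1056792 to 1057873). Its control values were 0.545, 0.350 and 0 FPKM, and its air-dried values were 10.9, 11.4 and 10.6 FPKM. All air-dried values stood above all controls, and they lay close together. The log2 fold change was 3.23 (SE 0.17, limma adjusted p = 0.000286), and the call held under each of 17 alternatives with an adjusted p of at most 0.0133. The nearest annotated gene lies 878 bp away on the same strand, with the locus on its upstream side, and that gene was higher after drying too. The controls gave 9.93, 11.4 and 12.3 FPKM and the air-dried libraries 59.1, 61.0 and 58.7 FPKM (log2 fold change 2.32, SE 0.090, limma adjusted p = 9.5e-05). Whether the locus and the gene share a transcript cannot be read from the files, which list no exons.

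XLOC_031266, a 632 bp locus also on the minus strand of chromosome 6 (191927 to 192558), was the second. Its controls measured 0.241, 0.943 and 0.364 FPKM and its air-dried libraries 8.27, 6.76 and 5.33 FPKM, with no overlap. The log2 fold change was 2.37 (SE 0.22, limma adjusted p = 0.00302). Its nearest annotated gene, 364 bp away on the opposite strand, measured 6.78 to 7.80 FPKM in the controls and 6.29 to 8.21 FPKM after drying (log2 fold change −0.083, limma adjusted p = 0.807). In both XLOC_031331 and XLOC_031266 the controls were under 1 FPKM in all 3 libraries, so these loci could enter the test only through the air-dried libraries.

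The third higher locus is a plus-strand locus of 947 bp on chromosome 1 (40731804 to 40732750). Its control values were 1.53, 0.789 and 0.607 FPKM, and its air-dried values were 9.92, 6.41 and 7.45 FPKM, with no overlap between the groups. Of the controls only control 1 reached 1 FPKM, so this locus also needed its air-dried libraries to enter the test. Its log2 fold change was 2.19 (SE 0.22, limma adjusted p = 0.00403). The annotated gene next to it, 305 bp away on the same strand, was abundant, at 1701, 1265 and 1891 FPKM in the controls. That gene measured 2274, 2294 and 2283 FPKM in the air-dried libraries and was not called (log2 fold change 0.52, SE 0.18, limma adjusted p = 0.235). The locus lies on the upstream side of that gene.

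The lower loci were weakly expressed, with control values between 2.12 and 6.89 FPKM. XLOC_027793 (548 bp, chromosome 5, 7990857 to 7991404, plus strand) had the largest fall. The controls gave 4.02, 3.16 and 2.12 FPKM and the air-dried libraries 0.368, 0.602 and 1.08 FPKM (log2 fold change −1.28, SE 0.23, limma adjusted p = 0.0392). Of its air-dried libraries only air-dried 3 reached 1 FPKM, so XLOC_027793 entered the test through its controls. XLOC_038609 (1248 bp, 2 transcripts, scaffold_1702, 2166 to 3413, minus strand) followed. Its control values were 4.43, 4.36 and 5.44 FPKM, and its air-dried values were 1.98, 1.42 and 1.77 FPKM (log2 fold change −1.08, SE 0.13, limma adjusted p = 0.00719). In both loci the air-dried values lay below all controls.

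The remaining 3 lower loci had smaller differences. A 359 bp locus on the minus strand of chromosome 1 (13094139 to 13094497) averaged 5.999 ± 0.843 FPKM in control leaves and 2.98 ± 0.300 FPKM in air-dried leaves (SD, n = 3, limma adjusted p = 0.0179). On the plus strand of chromosome 9 a 1401 bp locus (12478923 to 12480323) averaged 4.45 ± 0.567 and 2.34 ± 0.195 FPKM (SD, n = 3, limma adjusted p = 0.0224). A 3066 bp locus with 4 transcripts on the minus strand of chromosome 8 (14221754 to 14224819) averaged 4.18 ± 0.347 and 2.64 ± 0.212 FPKM (SD, n = 3, limma adjusted p = 0.0440). Their log2 fold changes were −0.81, −0.70 and −0.51. Of the 5 lower calls, those of the loci on chromosomes 5, 1, 9 and 8 were lost in 8, 7, 8 and 10 of 16 alternatives, and that of XLOC_038609 in 1. Rescaling the libraries to a common sum ended all 5 lower calls (limma adjusted p of 0.314 to 0.932). That sum was taken over transcripts of every span, and lower calls became fewer over all identifiers too, from 0.696% to 0.337%.

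**Figure D4:**
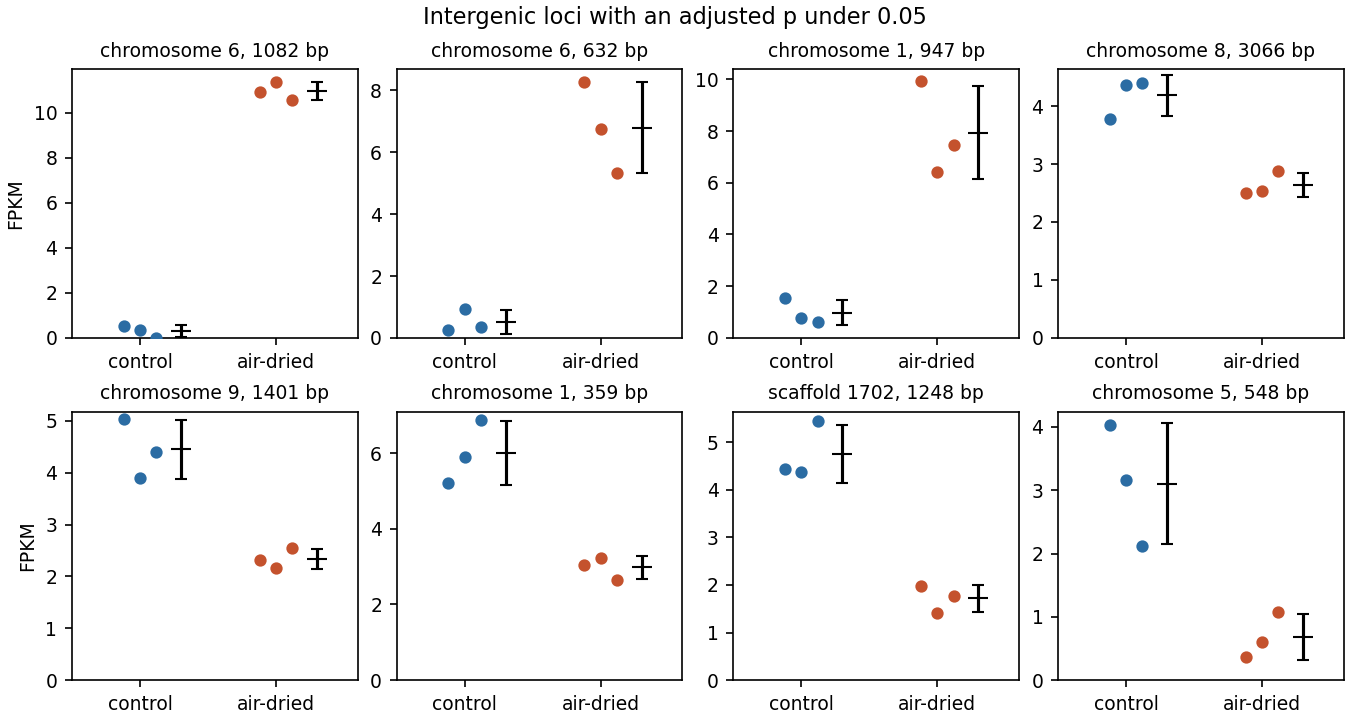
FPKM (y) in the 3 control (blue) and 3 air-dried (red) libraries for the 8 called loci, each titled with its sequence and span, with the group mean and SD in black beside the points. The 3 higher loci rise from under 2 FPKM to between 5.33 and 11.4 FPKM, and the 5 lower loci stay under 7 FPKM in every library.

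The count of calls rested on the libraries used. Leaving out control 3 and air-dried 1 gave 40 called loci (14.4%, beside 5.88% of all identifiers), 7 higher (beside 3.48%) and 33 lower (beside 2.41%). Of these 40, 5 were among the 8. Their median mean was 22.2 FPKM, and 17 of them spanned under 500 bp. In those 4 libraries the controls are the high and the air-dried libraries the low ones of the order described for the abundant loci, so that order and air-drying cannot be told apart there. No label sets control 3 and air-dried 1 apart. Leaving them out follows the order in the values themselves, which favours lower calls in advance. Leaving out control 2, air-dried 2 or air-dried 3 gave 5, 5 and 4 calls, beside 2.38%, 2.52% and 2.11% of all identifiers, so calls became fewer over all identifiers too. A term for the replicate number gave 5, 4 higher and 1 lower (beside 2.47% of all identifiers).

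No locus was listed at 0 in all 3 libraries of a group and above 0 in all 3 of the other (0 in each direction). Changes of at least 2-fold on the log2(FPKM + 1) scale, called or not, were seen upward in 10 (3.60%, beside 2.59% of all tested identifiers) and downward in 17 (6.12%, beside 1.18%) of the 278 tested loci. Libraries of the same group also varied more in the loci. The median SD within groups on this scale was 0.403 over the 316 loci and 0.141 over all annotated genes. The part of this spread in the 2-fold shares was not tested.

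Many loci lay close to an annotated gene. For 305 loci an annotated gene was listed on the same chromosome or scaffold, at a median distance of 878 bp. In 22735 detected annotated genes that overlapped no other annotated gene, the median distance to the next was 2031 bp. A gene lay within 1 kb of 161 loci (52.8%), a share of 29.0% among those annotated genes. By the conditions used, a locus between annotated genes lies inside the gap that separates them. Its distance to a gene is then only part of a gap, while the distance between annotated genes is a whole gap. Shorter distances for the loci are therefore partly built in, and how much of the contrast this makes up was not tested. The nearest loci stood 7, 38 and 40 bp from a gene, on chromosomes 16, 18 and 14. The farthest stood 70097 bp away on scaffold_34, 42123 bp away on scaffold_26 and 15101 bp away on chromosome 15. The locus 7 bp from a gene averaged 4.04 FPKM, and the most distant ones averaged 3.16, 3.93 and 14.1 FPKM.

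The orientation of these neighbours differed in the 2 classes. Within 1 kb, the locus and its gene were on the same strand in 99 of 161 cases (61.5%), and in 35.6% of 6584 annotated genes with a neighbour at that distance. The locus lay on the upstream side of a same-strand gene in 51 cases, on its downstream side in 48, beside the end of an opposite-strand gene in 36 and beside its start in 26. Among the annotated genes 54.8% stood end to end on opposite strands, a share of 22.4% in the loci. Same-strand loci on the upstream side had a median mean of 9.19 FPKM, above the 4.57 to 5.63 FPKM of the other 3 arrangements. At any distance, 188 of the 305 loci were on the strand of their nearest gene (61.6%), so the same-strand share was not particular to the loci within 1 kb. These shares are descriptions over loci, which are not replicates, and carry no test.

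**Figure D5:**
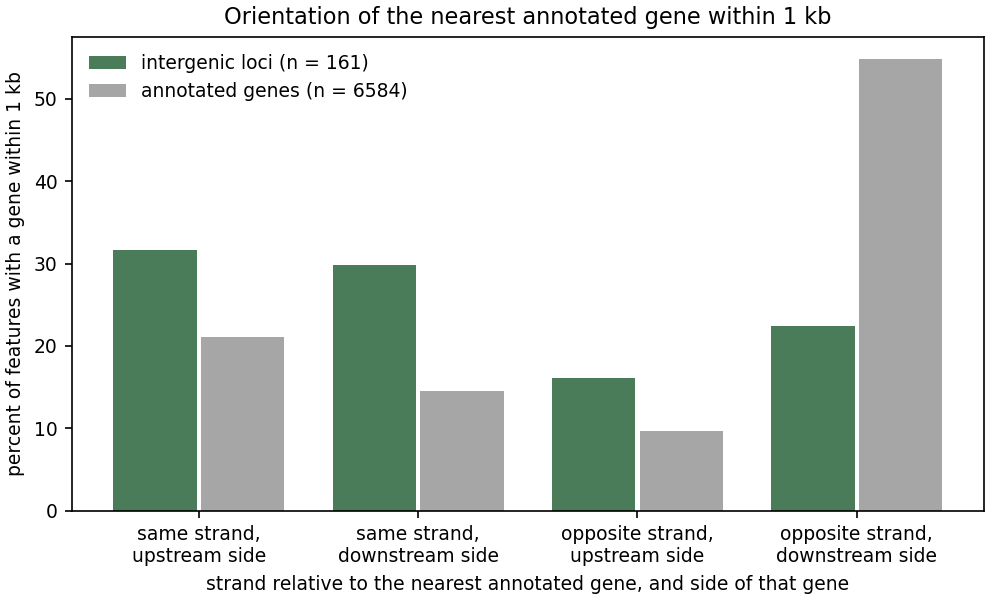
Share (y, percent) of the 161 intergenic loci (green) and of 6584 annotated genes (grey) with an annotated gene within 1 kb, by strand relative to that gene and by the side of it on which they lie (x). Bars for the loci are higher in both same-strand arrangements, and the bar for annotated genes is highest for opposite strands on the downstream side, at 54.8%.

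Levels of a locus and its neighbour were loosely related. Of the 161 loci within 1 kb of a gene, 99 had a higher mean FPKM than that gene, and the gene was under 1 FPKM in 45. Across these pairs the log2 levels correlated at r = 0.22, with the libraries shared by all pairs. Log2 fold changes of a locus and a same-strand gene within 1 kb correlated at r = 0.43 (Spearman's rho 0.33, across 66 pairs in which both were tested). Without XLOC_031331 and its neighbour, r was 0.16 and rho 0.30. For opposite strands r was 0.16 and rho 0.25 across 40 pairs. With either strand allowed, r was 0.345 and rho 0.300 across 106 pairs, XLOC_031331 and its neighbour included. For loci beyond 1 kb from their nearest gene, on either strand, r was 0.185 and rho 0.108 across 71 pairs. That r is above the 0.16 of the same-strand pairs within 1 kb without XLOC_031331, and that rho is below their 0.30. For annotated neighbours within 1 kb on either strand, r was 0.077 and rho 0.00058 across 3642 pairs. Annotated pairs were not split by strand, so the same-strand value of the loci has no annotated counterpart here.

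The longest loci were single transcripts with genomic spans of 13878 bp on chromosome 5 (11874563 to 11888440), 11151 bp on chromosome 12 (3536673 to 3547823) and 10105 bp on chromosome 10 (3226199 to 3236303). The longest measured 30.8, 32.9 and 24.7 FPKM in the controls and 31.8, 20.0 and 23.2 FPKM after drying, and the groups overlapped. The 10105 bp locus varied more, with 61.0, 24.4 and 19.7 FPKM in the controls and 67.0, 8.03 and 10.6 FPKM after drying. Controls 1 and 2 and air-dried 1 were again above the other libraries there.

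The loci with the most transcripts were all on the plus strand of chromosome 4. The first (13548625 to 13554482, 11 transcripts) measured 13.7, 15.6 and 13.6 FPKM in the controls and 10.94, 10.95 and 11.1 FPKM after drying. The groups did not overlap, and the test did not pass (log2 fold change −0.35, SE 0.077, limma adjusted p = 0.0702). The second (8948687 to 8950953, 11 transcripts) measured 15.5, 14.7 and 9.97 FPKM and 8.30, 5.54 and 6.75 FPKM, without overlap (log2 fold change −0.86, SE 0.20, limma adjusted p = 0.0846). The third (7730735 to 7736199, 9 transcripts) averaged 1.02 FPKM and was not tested.

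Some loci were steady. Among those of at least 10 FPKM, the lowest SD over mean was 0.0703, in a 4035 bp locus on chromosome 9 (2019456 to 2023490) that ranged from 20.4 FPKM in air-dried 1 to 25.03 FPKM in air-dried 2. A 2568 bp single-transcript locus on chromosome 7 (1048153 to 1050720) was steady at a high level, from 164 FPKM in control 1 to 199.8 FPKM in air-dried 1. These loci were picked after their values were seen.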

How the data were processed

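Each deposited file gives, per the file headers, the FPKM of every transcript in 1 library, and no source says that libraries were scaled to each other. TopHat, Cufflinks and FastQC appear in the submitters' processing notes, with neither version nor role. Genome build and annotation version: not given in the sources used here. The labels' protocols describe oligo(dT)-selected RNA, a TruSeq RNA kit, which does not mark strand, and paired ends of 100 bp. The 45773 annotated transcripts, of 112919, define the annotated genes. FPKM was summed per gene identifier. The 22559 identifiers that reached 1 FPKM in 3 or more libraries were tested with limma 3.58.1 in R 4.3.3 (lmFit, eBayes with an intensity trend, 2-sided) on log2(FPKM + 1), with Benjamini-Hochberg adjustment over all of them. Fold changes on this scale understate changes of low values. Per-library values were compared by exact permutation (scipy 1.17.1). Distances count the bases between a locus and a gene. Loci were named by rule: the 10 highest, those called, the 3 longest, the 3 with most transcripts, and the 3 nearest to and farthest from a gene. The loci, lists and comparisons were chosen with earlier results of these data known. Loci with near-identical copies elsewhere could share reads, which was not examined.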

Additional observations from a re-analysis of the deposited data

How the results depend on the processing

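Over the alternatives tried, the count of 8 called loci (3 higher, 5 lower) became 1, 1 and 0 with a mean of at least 5 FPKM (0.621% of the loci tested, beside 3.29% of all identifiers), 40, 7 and 33 without control 3 and air-dried 1 (14.4%, beside 5.88%), and 4, 0 and 4 among loci at least 1 kb from every annotated gene (2.92%, beside 4.3%). With a common sum 3 loci were called lower (0 of them among the 5), beside 0.337% of all identifiers, and with median centring 8 (5 of them among the 5), beside 0.860%. Leaving out 1 library gave 4 to 9 calls, 3 higher and 1 to 6 lower, beside 2.11% to 3.07% of all identifiers. With the replicate number as a block, 5 loci were called, 4 higher and 1 lower (4 of them among the 8), beside 2.47% of all identifiers; same-numbered libraries had deviations correlating at 0.24, −0.15 and 0.12, so the numbers do not show pairs. None of the 8 called loci changed direction in their fits (0 reversals), and the 3 higher ones kept their call wherever tested. The median log2 fold change of the loci (−0.13) was 0.13 with a common sum. The difference in loci above 0 per library (−0.33) lay between −4.17 and 2.83 with 1 library left out and was 1 for spans of at least 500 bp. The difference from antisense loci (0.062) was −0.031 at least 1 kb from genes and −0.023 for spans of at least 500 bp. Against strandless loci (−0.54) it was 1.01 for such spans and 1.68 from transcripts of at least 200 bp. Within 500 bp and 2 kb of an annotated gene lay 36.4% and 71.5% of loci (52.8% at 1 kb). The causes were not tested. The variants without overlapping loci and with a 0.001 FPKM limit, and the matched span of 500 to 1500 bp, were chosen after seeing the data. Leaving out control 3 and air-dried 1 together follows the library order in the values, and no label sets these libraries apart. Absolute depth is unknown, so the level at which a listed 0 excludes expression is unknown.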

Other observations

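Among the 316 loci, 33 overlapped another assembled identifier, and 10 pairs overlapped within the group, 9 of them on opposite strands. The kit does not mark strand, so reads of such pairs cannot be told apart by strand alone. On chromosome 4 a 500 bp plus-strand locus (17271084 to 17271583) averaged 6.65 FPKM inside a minus-strand locus (17271084 to 17274936) that averaged 48.8 FPKM. On chromosome 2 the members of a pair moved apart between libraries: the plus-strand locus (20626158 to 20626836) was under 0.001 FPKM in controls 1 and 2 and air-dried 1 and measured 2.54, 5.51 and 5.16 FPKM in control 3 and air-dried 2 and 3. Its minus-strand partner (20625896 to 20626836) measured 13.8, 8.38 and 5.28 FPKM in the controls and 36.1, 18.7 and 18.9 FPKM after drying.

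Within the 102 loci of several transcripts, the main transcript held a median of 70.6% of the mean FPKM. The transcript with the highest group mean differed between control and air-dried leaves in 28 of them, a count with no test. The same count was not made for annotated genes, so whether 28 is many or few is unknown.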
